A study of Mus musculus with 16 samples.

Results

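MiR-223, a microRNA (miR) of the granulocyte and monocyte lineages, was followed through 6 populations of early mouse hematopoiesis. Its members were the non-control probes annotated to mmu-miR-223 on a one-colour Agilent mouse miR array: 2 of 1712 probes, and 1 of the 577 miRs that the array carried. The 16 arrays each held RNA from a sorted bone marrow population of untreated female C57Bl/6 mice, with the marrow of several mice pooled for a sample. The stem cell side comprised LT-HSC (long-term hematopoietic stem cells, 1 array), ST-HSC (their short-term counterparts, 3 arrays) and MPP (multipotent progenitors, 3 arrays). The myeloid side comprised CMP (the common myeloid progenitors) with their offspring GMP, which give granulocytes and monocytes, and MEP, which give megakaryocytes and erythroid cells, with 3 arrays for each. All populations came from marrow depleted of lineage-positive cells and enriched for c-kit, with the stem cell subsets gated in one sort and the myeloid progenitors in another, so each population is defined by surface markers and not by function. Since RNA was pooled over many cells, a higher miR-223 level per cell and more cells that hold miR-223 cannot be told apart in these data.

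A miR is cut from a hairpin precursor and guides the silencing complex to messenger RNAs that pair with its seed, the bases near its 5′ end. MiR-223 is best known as a miR of the granulocyte-monocyte branch, where the myeloid transcription factors PU.1 and C/EBP drive its gene and where it restrains the proliferation and activation of granulocytes through targets such as Mef2c. Its level falls along the erythroid branch, in which LMO2 is among its described targets.

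The sequences below, from RefSeq (build GRCm38.p6), are printed because the array names the miR without an arm: miR-223 of the array is the 3p arm. Capitals mark the seed, bases 2 to 8, in the mature arms, and the whole 3p arm in the hairpin.

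mmu-miR-223-3p: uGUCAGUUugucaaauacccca
mmu-miR-223-5p: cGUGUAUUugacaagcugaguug
Mir223 hairpin: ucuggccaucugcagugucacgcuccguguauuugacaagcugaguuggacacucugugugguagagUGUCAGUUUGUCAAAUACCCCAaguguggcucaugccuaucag

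The 3p arm is 22 bases long and the 5p arm 23, within a hairpin of 110 bases at chrX:96242817-96242926 on the plus strand. In the RefSeq annotation the hairpin lies within the span of the long non-coding RNA gene F630028O10Rik, between the protein-coding genes Msn and Vsig4. Of the 1679 mature mouse sequences in the table, 0 others shared the seed GUCAGUU, and the closest differed from the 3p arm by 9 edits, so no paralog of this seed stands beside miR-223 in the table. The array files place both probes on chromosome X of the older build mm9, 1 over 93438225 to 93438244 (20 bases) and the other over 93438224 to 93438244 (21 bases). The probes thus overlap in all but 1 base and are not independent measures. No probe was annotated to the 5p arm.

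Across the series, each array carried 10 spots of either probe. All 20 spots were well above background on all 16 arrays and none was saturated, and the brighter, 21-base probe lay 83.5 to 4471 times above the 95th percentile of the negative controls. LT-HSC 1 had the lowest summed signal with 34810 units and GMP 2 the highest with 335064, and the arrays lay on 3 slides. CMP, GMP and MEP had their replicates 1 and 2 on slide 1 and their replicate 3 on slide 2, beside LT-HSC 1 and ST-HSC 1, while slide 3 carried ST-HSC 2 and 3 with all MPP arrays. The erythroid miRs miR-144, miR-451 and miR-486 took 3.47% to 7.08% of the signal on MEP arrays and 0.0176% to 0.370% on ST-HSC, MPP, CMP and GMP arrays. On the LT-HSC array they took 1.66%, with 3 of 3 well above background, above every array of those 4 populations. A list of 5 stem cell miRs took 0.886% to 1.72% on LT-HSC, ST-HSC and MPP arrays and at most 0.726% on myeloid progenitor arrays. For muscle, liver and brain miRs 0 to 2 of 4 were well above background, the 2 being miR-1 and miR-133a on MEP 1.

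The signal of miR-223 before any normalization between arrays was read first. On the GMP arrays the brighter probe gave 25563, 31658 and 9781 units. On the CMP arrays it gave 7539, 10217 and 2276 units. GMP 3 and CMP 3, both on slide 2, were the lowest of their populations, so the highest CMP array exceeded the lowest GMP array on this scale. ST-HSC arrays gave 1785, 3598 and 3284 units and MPP arrays 3290, 3116 and 2883 units, which overlap. MEP arrays gave 1059, 1069 and 127.8 units, and the LT-HSC array gave 209.7. The lowest values of the series thus lay in MEP and LT-HSC, and the third MEP array, on slide 2, was far below the other MEP arrays.

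**Figure D1:**
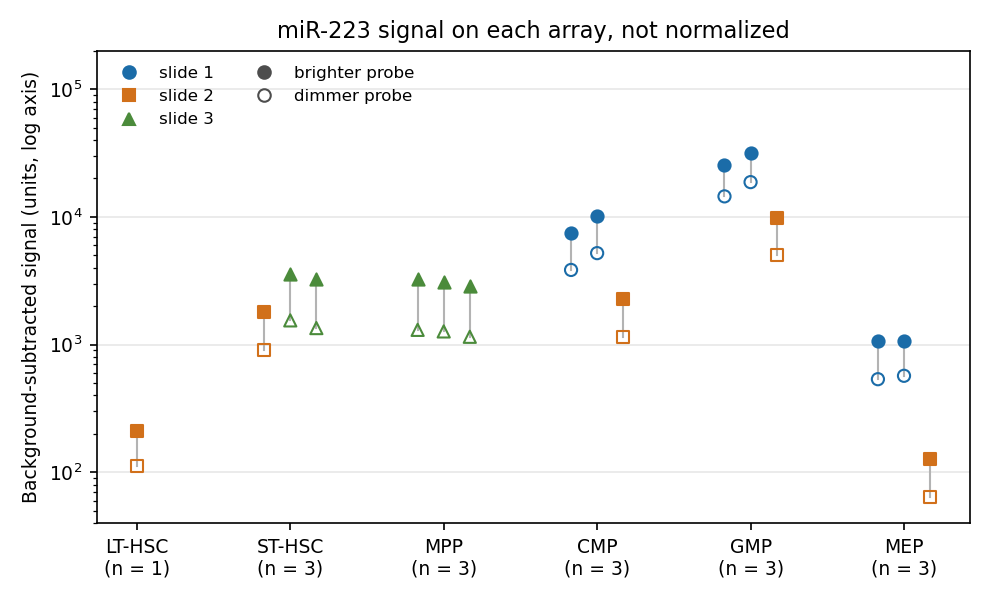
Background-subtracted signal of the miR-223 probes on each array (log axis, units of the scanner), by population, with filled symbols for the brighter and open symbols for the dimmer probe, joined by a line, and colours and shapes for the slide. GMP arrays reached 9781 to 31658 units for the brighter probe and MEP arrays 127.8 to 1069, and slide 2 arrays of CMP, GMP and MEP lay below those of slide 1.

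Arrays of 1 slide were set against each other without normalization, so the ratios still carry differences in overall brightness. On slide 1 the summed signal of GMP was 1.01 to 1.39 times that of CMP and 1.28 to 2.04 times that of MEP. On slide 2 the summed signal of GMP 3 was 1.71 times that of CMP 3 and 3.26 times that of LT-HSC 1. On slide 1 the brighter probe was 2.50 to 4.20 times higher in GMP than in CMP over the 4 pairs of arrays, and on slide 2 it was 4.30 times higher. GMP exceeded MEP 23.9 to 29.9 times on slide 1 and 76.6 times on slide 2, and CMP exceeded MEP 7.05 to 9.65 times and 17.8 times. The order GMP, CMP, MEP was therefore the same on both slides, with a wider gap to MEP on slide 2. On slide 2, GMP 3 was 5.48 times above ST-HSC 1 and 46.7 times above LT-HSC 1. CMP 3 was 1.28 times above ST-HSC 1. As shares of the summed signal, the ratios of GMP to CMP were 2.57 to 3.18 on slide 1 and 2.53 on slide 2. The share ratios of GMP to MEP were 14.2 to 20.9 and 60.8, and those of CMP to MEP 4.73 to 7.66 and 24.1. By share, GMP 3 was 3.54 times above ST-HSC 1 and 14.1 times above LT-HSC 1. On slide 3 the ratios of ST-HSC to MPP spread from 0.998 to 1.25 over 6 pairs, and by share from 1.15 to 1.40.

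The pair of probes allowed a check of the measurement itself. The spots of the brighter probe varied with a coefficient of variation of 1.18% to 8.41% within an array, and those of the dimmer with 2.11% to 7.32%. The brighter probe gave 1.69 to 1.98 times the signal of the dimmer on slide 1, 1.88 to 1.99 times on slide 2 and 2.32 to 2.52 times on slide 3. For ST-HSC, the one population on both slides 2 and 3, the ratio was 1.96 on ST-HSC 1 on slide 2 and 2.32 and 2.44 on the arrays of slide 3. The 2 lowest ratios of the series, 1.77 and 1.69, were those of GMP 1 and GMP 2, the arrays with the highest miR-223 signal, against 1.88 to 1.98 on the CMP and MEP arrays of the same slide and 1.96 on GMP 3 on slide 2. What sets this ratio was not tested. Differences between slide 3 and the other slides therefore carry this change of ratio, and the values from the dimmer probe, an alternative chosen after seeing the data, are given beside them below.

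**Figure D2:**
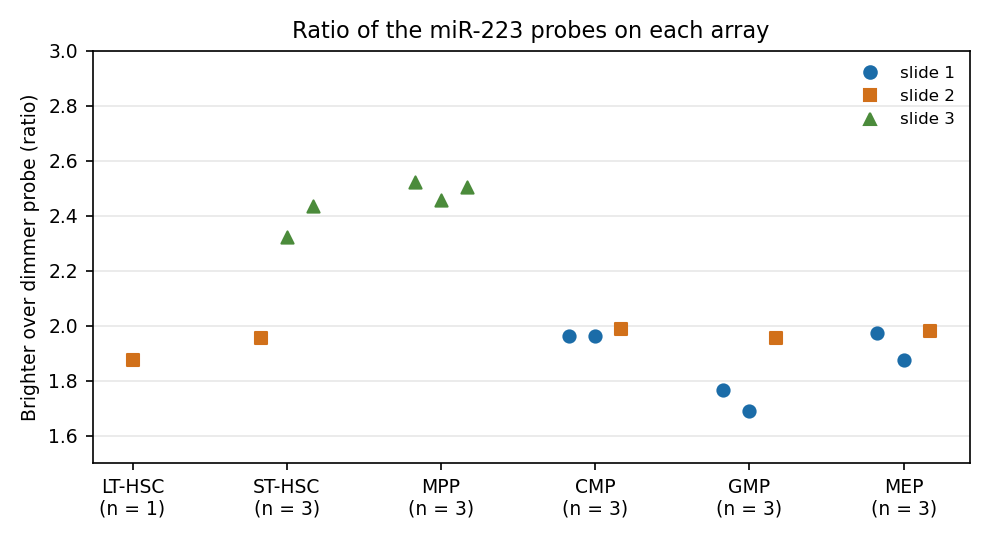
Ratio of the signal of the brighter to that of the dimmer miR-223 probe on each array, by population, with colours and shapes for the slide; the axis starts at 1.5. Arrays of slide 3 lay at 2.32 to 2.52, above all arrays of slides 1 and 2, which lay at 1.69 to 1.99.

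The share that both miR-223 probes took of the summed signal of their array removes the overall brightness of the array. It was 14.2%, 15.04% and 13.04% on the GMP arrays and 4.73%, 5.51% and 5.16% on the CMP arrays. It was 3.69%, 3.76% and 3.69% on the ST-HSC arrays and 3.19%, 2.68% and 2.70% on the MPP arrays. On the MEP arrays it was 0.720%, 0.999% and 0.215%, and it was 0.924% on the LT-HSC array. On this scale the populations separated in the order GMP, CMP, ST-HSC and MPP with no overlap between neighbours, and the LT-HSC value fell among the MEP values. The mean share in GMP was 14.1% ± 1.001 (SD, n = 3) against 2.92% ± 1.75 (SD, n = 13) on the other arrays (two-sided exact permutation test, p = 0.00357, the smallest that the 560 splits allow; 0.00714 adjusted over 4 such tests). The mean share in MEP was 0.644% ± 0.398 (SD, n = 3) against 6.02% ± 4.76 (SD, n = 13) on the other arrays (two-sided exact permutation test, p = 0.00714, also when adjusted over the 4).

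A share depends on what else is bright. The feature annotated miR-1224 was the brightest on the MEP arrays and took 34.5%, 35.9% and 20.3% of their signal, and miR-720, since recognised as a fragment of a transfer RNA, was the brightest on LT-HSC, ST-HSC, MPP and CMP arrays. With both left out of the sum, a choice made after seeing the data, the share of miR-223 was 16.7% ± 0.247 in GMP, 6.004% ± 0.445 in CMP, 4.60% ± 0.211 in ST-HSC, 3.38% ± 0.412 in MPP and 1.07% ± 0.732 in MEP (SD, n = 3 each). The single LT-HSC array had 1.63%. The order of the population means with 3 arrays was as before, and the LT-HSC value again lay within the MEP range of 0.285% to 1.73%.

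MiR-223 was the brightest of the 577 miRs on each of the 3 GMP arrays, and 0 miRs ranked above it there. Its lead was small: its signal was 1.18, 1.26 and 1.02 times that of miR-720, the next brightest, on GMP 1, 2 and 3. The rank rests on the brighter probe, which was 1.77, 1.69 and 1.96 times the dimmer there. The dimmer probe thus lay below miR-720 on each GMP array. Since probes bind with unequal strength, a rank orders signals and not copies per cell. It ranked 4, 3 and 4 on the CMP arrays, 6, 6 and 9 on the ST-HSC arrays and 8, 9 and 9 on the MPP arrays. MiR-142-3p, a miR of blood cells in general, and miR-720 ranked above it on every CMP array. It ranked 18 on the LT-HSC array and 24, 16 and 48 on the MEP arrays, so that MEP and LT-HSC overlapped here too. The rank of 1 in GMP against a mean rank of 12.6 (range 3 to 48) on the 13 other arrays gave p = 0.00357 in the exact permutation test, and the mean rank of 29.3 ± 16.7 in MEP against 6.08 ± 4.72 (SD, n = 3 and 13) gave p = 0.00714 (each 0.00714 after adjustment over the 4 tests). Without MEP 3 the difference in mean rank between MEP and the other arrays fell from 23.3 to 13.9 (exact permutation p = 0.0381).

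**Figure D3:**
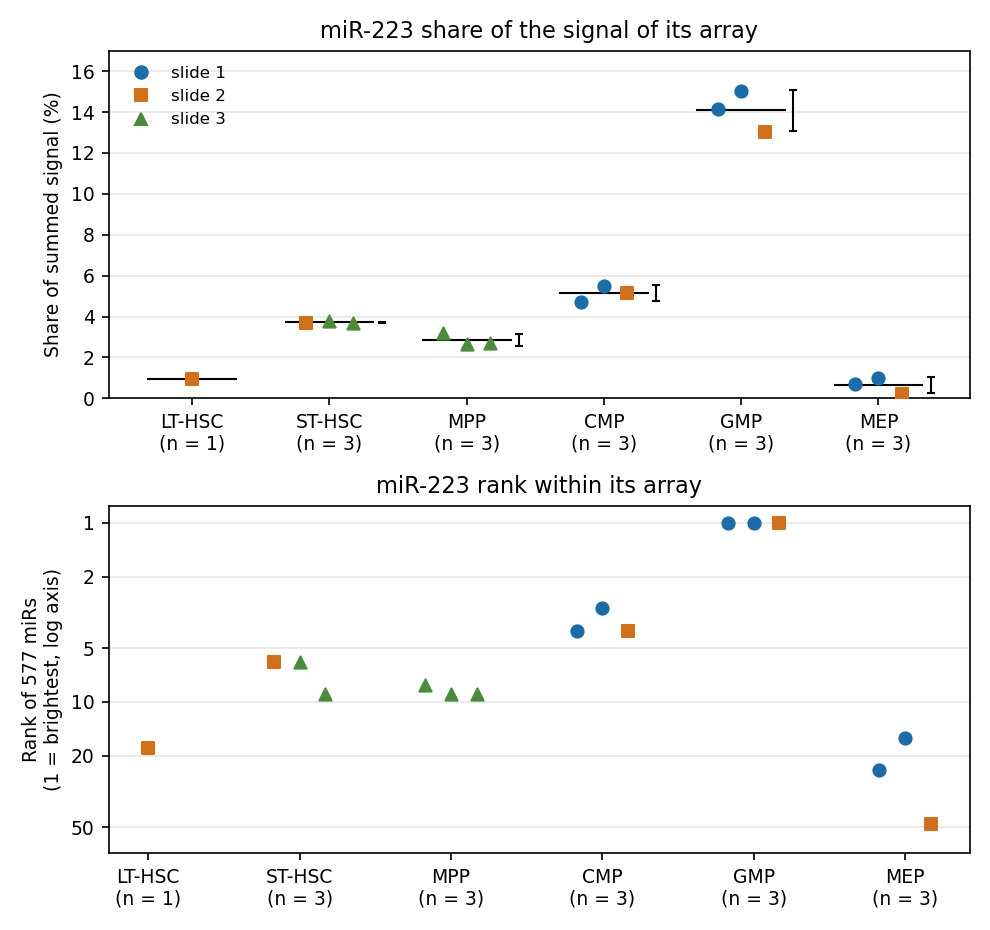
Upper panel: share of the summed signal of an array taken by both miR-223 probes (%), per array, with the mean of a population as a line and the SD of its 3 arrays as a bar. Lower panel: rank of miR-223 among the 577 miRs of the array (log axis, 1 at the top). Shares of 13.04% to 15.04% and a rank of 1 set the GMP arrays apart, while MEP arrays lay at 0.215% to 0.999% and ranks of 16 to 48.

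For tests between populations, the spots of a probe were averaged and the probe means quantile-normalized, whereas the study's methods applied quantile normalization to values that were deposited per spot. Limma was then fitted over the 237 miRs that passed a detection filter. Quantile normalization gives arrays the same value at the same rank, so the 3 GMP arrays were tied at 14.04 on the log2 scale and had no measured spread there. In the deposited log2 values the GMP arrays were not tied and measured 13.73, 13.94 and 13.31. The values that follow are again those of the quantile-normalized probe means, not the deposited ones. On this scale CMP arrays measured 12.70, 12.88 and 12.39, ST-HSC arrays 11.79, 12.07 and 11.79, and MPP arrays 11.79, 11.73 and 11.73. MEP arrays measured 9.97, 10.61 and 8.26 and the LT-HSC array 10.42, also on this scale. MEP spread most, with an SD of 1.22 against at most 0.24 in CMP, ST-HSC and MPP, and the model pools this spread into the error of every comparison. When arrays were scaled instead to the 75th percentile of their always-detected probes (well above background on each of the 16), the GMP arrays were no longer tied and measured 13.53, 13.56 and 13.62 (mean 13.57 ± 0.05, SD, n = 3).

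MiR-223 differed between the 6 populations (moderated F, limma adjusted p = 1.77e-05), as did 82.7% of the tested miRs, and it stood at place 42 of 237 by p. A call on this test is therefore common among the miRs of these cells, and the pairs of populations say more.

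The widest gap was between the branches of myeloid differentiation. MiR-223 was 4.43 ± 0.43 log2 units (SE) higher in GMP than in MEP, a fold of 21.5 with a 95% interval of 11.4 to 40.7 (limma adjusted p = 1.41e-06). Of the tested miRs 62.9% were called in this comparison, and by size miR-223 stood at place 6 of 237, and at place 3 among those higher in GMP. In the intermediate CMP it was 3.05 ± 0.43 log2 units above MEP, a fold of 8.25 with an interval of 4.37 to 15.6 (limma adjusted p = 4.21e-05, with 64.6% of miRs called). Within slide 1 these differences were 3.75 and 2.50 log2 units (limma adjusted p = 0.000323 and 0.000819), and within slide 2, with 1 array a population and no test, they were 5.78 and 4.14. Without MEP 3 they were 3.75 and 2.37 (limma adjusted p = 2.2e-07 and 5.6e-06). All GMP and CMP arrays lay above all MEP arrays on this scale. Beside these differences, the erythroid list took 5.68%, 3.47% and 7.08% of the signal on MEP 1, 2 and 3, and its share and the miR-223 share ran in opposite order over the 3 arrays; the part of erythroid content in the miR-223 level was not tested.

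GMP against CMP asks whether miR-223 is higher in GMP than in the population that gives rise to it. The difference was 1.38 ± 0.43 log2 units (SE), a fold of 2.61 with a 95% interval of 1.38 to 4.93, and on this scale every GMP array lay above every CMP array. It missed the threshold after adjustment (limma adjusted p = 0.0572, unadjusted 0.00625), in a comparison where 7.59% of the miRs were called. The call turned on the setting: 9 of 14 tested alternatives called it, with differences of 1.25 to 1.88 over all alternatives. With slide as a block the difference was 1.38 (limma adjusted p = 0.0109), with 75th percentile scaling 1.55 (limma adjusted p = 0.0138), and within slide 1 alone 1.25 (limma adjusted p = 0.0339). The dimmer probe gave 1.38 and no call (limma adjusted p = 0.139). The spread of the MEP arrays decided it as well, although MEP is no part of the comparison: without MEP 3 the limma adjusted p was 0.000845 and without MEP 2 it was 0.0241, at the same difference of 1.38.

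Against the stem cell side, GMP stood 2.16 ± 0.43 log2 units above ST-HSC (fold 4.46, interval 2.36 to 8.44, limma adjusted p = 0.00226, with 36.7% of miRs called) and 2.29 ± 0.43 above MPP (fold 4.91, interval 2.60 to 9.28, limma adjusted p = 0.00092, with 42.6% called). MEP stood below both, at -2.27 ± 0.43 log2 units against ST-HSC (limma adjusted p = 0.000504, with 59.9% of miRs called) and -2.13 ± 0.43 against MPP (limma adjusted p = 0.000538, with 71.3% called). Without MEP 3 these were -1.59 and -1.46 (limma adjusted p = 8.07e-05 and 0.000112). With the dimmer probe GMP stood 1.90 above ST-HSC and 2.52 above MPP (limma adjusted p = 0.0158 and 0.00218), and MEP stood at -2.38 and -1.76 (limma adjusted p = 0.00177 and 0.00921). With the brighter probe, miR-223 stood by size at place 15 of 237 in GMP against ST-HSC and at place 26 in GMP against MPP. Among miRs higher in GMP it stood at places 6 and 9. On the quantile scale no MEP array reached any ST-HSC or MPP array. On slide 2 alone the differences from ST-HSC 1 were 2.25 for GMP and -3.53 for MEP, with 1 array each and no test. MPP shared no slide with CMP, GMP or MEP, so all differences from MPP lie between slides. ST-HSC shared a slide with them only through ST-HSC 1. With slide as a block, GMP stood 1.71 above ST-HSC and 1.90 above MPP (limma adjusted p = 0.0282 and 0.0418). MEP then stood at -2.71 and -2.53 (limma adjusted p = 0.000774 and 0.00479). MiR-223 was thus at intermediate levels in ST-HSC and MPP, above MEP and below GMP.

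CMP was not separated from the stem cell side by these tests. It stood 0.77 ± 0.43 log2 units above ST-HSC (95% interval -0.14 to 1.69, limma adjusted p = 0.203, with 17.7% of miRs called) and 0.91 ± 0.43 above MPP (interval -0.01 to 1.83, limma adjusted p = 0.111, with 32.9% called), although on the quantile scale every CMP array lay above every ST-HSC and MPP array. Before normalization CMP 3 lay below all MPP arrays and 2 of the 3 ST-HSC arrays, and with 75th percentile scaling CMP 1 (11.85) lay below ST-HSC 2 (11.89). With the dimmer probe the differences were 0.52 and 1.14 (limma adjusted p = 0.488 and 0.111). Without MEP 3 both were called (limma adjusted p = 0.0185 and 0.00347). ST-HSC and MPP differed by 0.14 ± 0.43 log2 units (interval -0.78 to 1.06, limma adjusted p = 0.849, with 4.64% called), an interval that holds differences in both directions. Within slide 3 the difference was 0.18 (limma adjusted p = 0.255), and with the dimmer probe over all slides 0.62 (limma adjusted p = 0.494).

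The single LT-HSC array lay 1.47 log2 units below ST-HSC (log2 difference -1.47 ± 0.60 SE, interval -2.77 to -0.17, limma adjusted p = 0.107, with 22.8% of miRs called), with its spread assumed to be that of the other populations. Against ST-HSC 1 on the same slide the difference was -1.37. It was called in 3 of 13 tested alternatives, among them the share of the summed signal (-2.09, limma adjusted p = 0.0188), and in the fits without MEP 2 or MEP 3 (limma adjusted p = 0.0438 and 0.00307). This was the array with the lowest summed signal and with the erythroid signal of 1.66% given above, against 0.109% to 0.370% on ST-HSC arrays; the part of either in the low miR-223 value was not tested. In the order of mean levels, GMP 14.04, CMP 12.66, ST-HSC 11.88, MPP 11.75, LT-HSC 10.42 and MEP 9.61, GMP and CMP, CMP and ST-HSC, and ST-HSC and MPP were neighbours whose difference did not pass the test, and the steps on either side of LT-HSC were not tested.

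**Figure D4:**
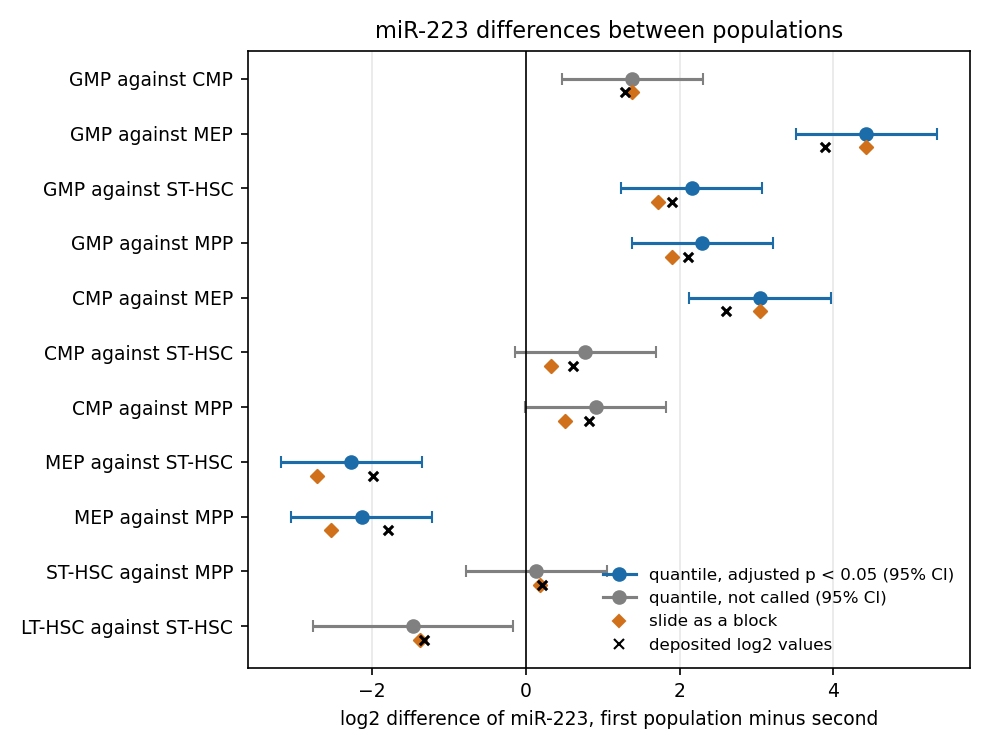
Log2 difference of miR-223 in 11 comparisons of populations, first minus second, from quantile-normalized values with 95% intervals (blue, limma adjusted p under 0.05; grey, not called), with the same difference when slide was a block (diamonds) and from the deposited log2 values (crosses). The intervals of 6 comparisons that involve GMP or MEP stood clear of 0 and were called, while those of GMP against CMP and LT-HSC against ST-HSC excluded 0 without a call after adjustment.

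Scaling moved all miRs together in some comparisons. The median of all tested miRs in GMP against MEP was 0.44 log2 units with quantile normalization, 0.02 with the 75th percentile of probes well above background, and 1.09 with no normalization. Relative to that median, miR-223 was 3.98, 4.14 and 4.16 log2 units higher in GMP. Subtracting the median cancels any factor common to an array, so the last 2 of these had to be close to each other, while the difference before subtraction was 4.43, 4.16 and 5.25. In GMP against CMP the median was -0.01 and miR-223 lay 1.40 log2 units above it, from a difference of 1.38 before subtraction.

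For comparison with other miRs of the same branch, 13 miRs tied to granulocyte and monocyte development were read from the same fit, all of which passed the detection filter. In GMP against CMP, 0 of 13 were called by limma in either direction, where 7.59% of all miRs were called. At an unadjusted p under 0.05, 2 of 13 passed as lower in GMP, miR-21 (-0.68) and miR-34a (-0.72, both named after their values were seen), and 0 as higher. Of all 237 tested miRs, 50 passed that unadjusted threshold in either direction, so 2 of 13 does not set the list apart. The list had a median of 0.14 log2 units against -0.01 for all miRs. MiR-223 at 1.38 lay above each of the 13, of which the highest was miR-27a at 0.27. Among all tested miRs it stood at place 15 of 237 by size, and at place 8 among those higher in GMP. In GMP against MEP, 5 of 13 were called as higher in GMP and 0 as lower, with 40.9% of all miRs called as higher and 21.9% as lower, and the list median was 0.51 against 0.44. The 5, named after their values were seen, were miR-23a (2.99 ± 0.20 SE, limma adjusted p = 3.61e-07), miR-24 (2.26 ± 0.24) and miR-27a (3.43 ± 0.32), and the inflammation-linked miR-146a (2.23 ± 0.52) and miR-155 (2.08 ± 0.45). Of these, none equalled the 4.43 of miR-223. In CMP against MEP, 7 of 13 were called as higher in CMP, with 43.9% of all miRs called as higher.

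The miRs whose pattern was most like that of miR-223 were sought by the Pearson correlation of log2 levels over the 16 arrays, given as a description since the arrays share slides and populations. Of 236 miRs, with a median r of 0.29, 3 had r over 0.9 and 20 over 0.8. The 5 highest were miR-192 (0.96), miR-139-5p (0.92), miR-194 (0.92), miR-130b (0.90) and miR-149 (0.89). MiR-192 averaged 4.76 log2 units in GMP, 4.01 in CMP and 2.86 in MEP, close to the floor of 1.62, and was well above background on 9 of 16 arrays, none of them LT-HSC or MEP. MiR-139-5p, miR-194 and miR-149 were likewise not well above background on any LT-HSC or MEP array, so their low ends are bounds. On the CMP arrays miR-194 was well above background on 0 of 3, and miR-192, miR-139-5p and miR-149 on 1 of 3 each. The CMP means of these miRs thus rest mostly on values not well above background. MiR-130b was measured on all 16 arrays and ran from 7.23 in MEP to 8.37 in CMP and 8.36 in GMP.

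At the other end stood miR-451 (-0.86), miR-705 (-0.82), miR-134 (-0.81), miR-671-5p (-0.81) and miR-691 (-0.80), all with their highest mean in MEP. MiR-691 was well above background on 0 of 3 CMP and 0 of 3 GMP arrays, and miR-134 on 0 of 3 and 1 of 3. MiR-451, an erythroid miR processed by Argonaute itself, averaged 12.12 log2 units in MEP, 11.15 on the LT-HSC array and 5.37 in GMP, so it was highest where miR-223 was lowest. The lists depend on the scale: when arrays were scaled by their summed signal, 1 of the 5 highest and 2 of the 5 lowest were shared with these.

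**Figure D5:**
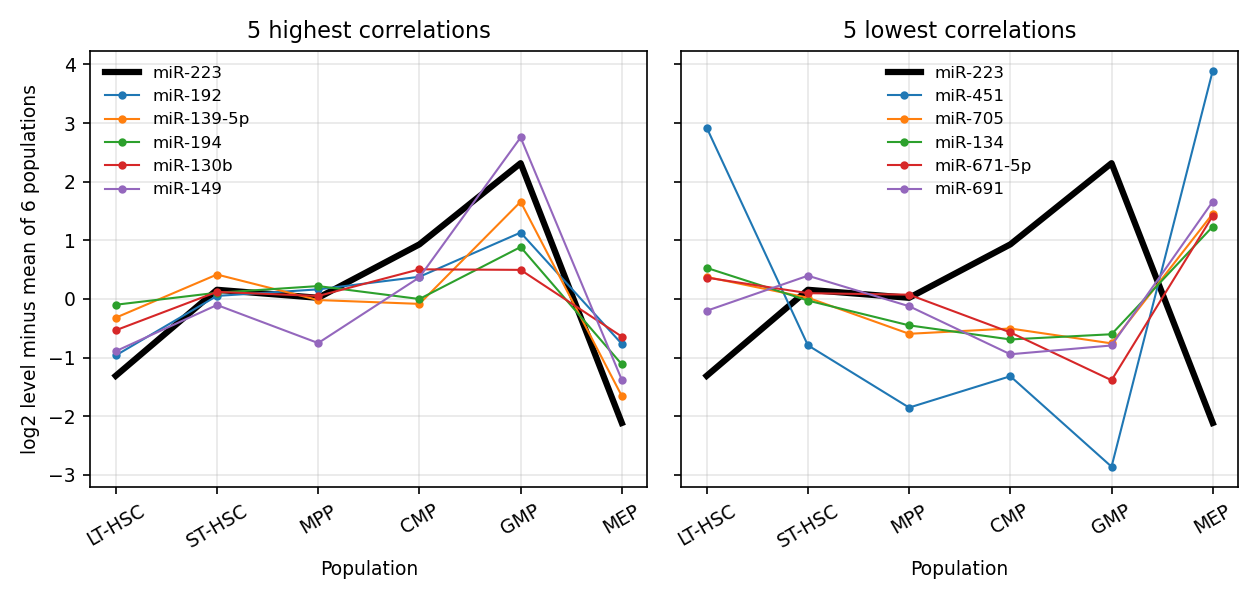
Mean log2 level of each population minus the mean of the 6 populations, for miR-223 (thick line) with the 5 miRs of highest (left) and of lowest (right) Pearson correlation with it over 16 arrays. The left group peaked in GMP, except miR-130b, which was as high in CMP (8.37) as in GMP (8.36), and the right group peaked in MEP.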

How the data were processed

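The deposited scanner output holds the background-subtracted intensity of each spot from Agilent Feature Extraction (versions 9.5.3.1 and 10.2.1.3, per the file headers), not normalized between arrays, with other columns of yes-or-no spot calls (well above background, saturated, outlier), and a table of log2 values that the authors had quantile-normalized with limma was deposited too. Control and outlier spots were left out and the spots of a probe averaged. Probe means were quantile-normalized over 16 arrays, raised to a floor of 3.07 units (the median of the 95th percentiles of negative controls; 1.62 as log2) and log2-transformed. Probes well above background in at least 0.5 of their spots on at least 3 arrays were kept (493 probes, 237 miRs), and the brightest stood for its miR. A linear model of 6 population means was fitted in limma 3.58.1 in R 4.3.3 (10 residual and 3.1 prior degrees of freedom), with Benjamini-Hochberg adjustment over 237 miRs in each of 11 comparisons and calls at an adjusted p under 0.05. Shares and ranks used unnormalized probe means and exact permutation tests in scipy 1.17.1. These tests exchanged all 16 arrays freely, across slides and across the populations pooled as the other arrays. The number of arrays limits the precision, and p-values measure the spread between pooled samples. Named miRs were miR-223, the 5 highest and 5 lowest by correlation, miRs above it on every GMP array, and members of a list of 13 if called in GMP against CMP (none was). MiR-142-3p, miR-720, miR-1224, the marker miRs, miR-21, miR-34a and the 5 list members called in GMP against MEP were named outside this rule. Members and lists were chosen with earlier results of these data known. The fit was tested on simulated data. Alternatives covered scaling, background, filter, probe, slide, replicate block and each array left out.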

Additional observations from a re-analysis of the deposited data

How the results depend on the processing

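The differences GMP against MEP, ST-HSC and MPP, CMP against MEP, and MEP against ST-HSC and MPP, the moderated F and all 4 permutation tests kept their direction and stayed past the threshold in every alternative tested, each array left out included. GMP against CMP, not called in the report, was called with 75th percentile scaling of detected probes (1.55) or of all probes (1.88), share scaling (1.41), normexp (1.37), slide as a block (1.38), the deposited log2 values (1.29), adjustment over all 11 comparisons together (1.38) and within slide 1 (1.25); it was 1.25 to 1.49 with 1 array left out and called without MEP 2 or MEP 3. LT-HSC against ST-HSC was called with 75th percentile scaling of all probes (-2.53), no normalization (-3.72) and share scaling (-2.09), and was -1.51 to -1.37 with 1 array left out. CMP against ST-HSC (0.66 to 0.91 with 1 array left out, 0.29 to 1.02 in the other alternatives) and against MPP (0.80 to 1.04 and 0.52 to 1.14) were called only without MEP 3. GMP against MEP ran from 3.75 to 4.93 and from 3.75 to 5.78 in the same order. Within slide 2 GMP against MEP was 5.78, CMP against MEP 4.14 and MEP against ST-HSC -3.53, and without normalization ST-HSC against MPP was reversed at -0.16 (limma adjusted p = 0.96). The cause was not tested. Replicate numbers showed no common pairing over all populations: of 30 same-number pairs 12 correlated over 0.1 (median r -0.03). All 9 pairs among CMP, GMP and MEP did so (lowest 0.23). Those 9 pairs each share a slide. Among these populations on slide 1, same-number pairs correlated at 0.23 to 0.48 and different-number pairs at 0.30 to 0.45. Slide 2 held only replicate 3 of each, so there pairing by sample and a slide effect cannot be told apart. What sets these correlations was not tested. With the replicate number as a block, GMP against CMP was 1.38 (limma adjusted p = 0.0473), and no other call on miR-223 changed. The number of miRs called in GMP against CMP was 18 in the main setting, 2 without normalization, 13 with 75th percentile scaling of all probes and 68 with slide as a block. Counts over all miRs also moved by over 1.5 times without normalization (20 in place of 78 in CMP against MPP, 29 in place of 87 in GMP against ST-HSC, 45 in place of 101 in GMP against MPP) and with slide as a block (115 in place of 54 in LT-HSC against ST-HSC, 42 in place of 11 in ST-HSC against MPP). Without normalization limma called 0 miRs in CMP against ST-HSC (43 at an unadjusted p under 0.05, in place of 42 called) and 0 in ST-HSC against MPP (16 unadjusted, in place of 11 called). With 1 array left out, counts ran from 8 (without GMP 3) to 33 (without ST-HSC 1) in GMP against CMP and from 11 (without ST-HSC 3) to 97 (without ST-HSC 1) in CMP against ST-HSC. In GMP against MEP 65.1% of the called miRs were higher in GMP, and 46.6% with 75th percentile scaling of detected probes. The same scaling moved this share more in other comparisons. It went from 56.3% to 25.7% higher in GMP in GMP against ST-HSC. In LT-HSC against ST-HSC it went from 27.8% to 74.4% higher in LT-HSC. Within-slide-2 values against ST-HSC, the dimmer probe and the sum without miR-720 and miR-1224 were chosen after seeing the data. LT-HSC, with 1 array, allows no test of its own spread.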
